A study of Spinacia oleracea with 12 samples.

Results

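In spinach (Spinacia oleracea), 272 of 25495 genes differed between the high-oxalate accession PI175311 and the low-oxalate cultivar Bloomsdale in the leaf while their mean levels were alike in the root. Of these, 110 were higher and 162 were lower in PI175311 leaves. The genes were chosen by their measured levels. All 3 leaf libraries of one genotype lay above all 3 of the other, the ratio of the leaf means was at least 3 with a higher mean of at least 1 FPKM, and both root means were at least 1 FPKM and within 1.5 fold of each other. FPKM, the unit of all levels below, is the number of sequenced fragments of a gene divided by its length and by the total of the library. Genes under 0.05 FPKM in all 3 leaves of a genotype were left out, which removed 3 genes, and Spo13898 and Spo12360 were left out by name. The differences between the genotypes in leaf and the likeness of the root means are therefore the choice itself and are given below as a description.

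RNA came from leaf laminae and roots of plants that were 6 weeks old. The 4 groups were PI175311 leaf, labelled High Oxalate, Bloomsdale leaf, labelled Low Oxalate, and the roots of the same genotypes, each with 3 libraries from separate plants. Both genotypes were raised in a growth chamber on the same medium with a nitrogen supply given as 200 ppm in the sample labels, whereas the methods of the paper describe a feed without nitrogen. Each genotype is a single accession, so oxalate content and every other inherited difference between PI175311 and Bloomsdale cannot be told apart. In whole organs, fewer cells of a type and less RNA per cell cannot be told apart either.

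A leaf lamina is a green organ of photosynthetic mesophyll, epidermis and veins, and in spinach it accumulates oxalate, partly as calcium oxalate crystals. The root takes up nitrate and minerals. The gene IDs are those of the spinach genome database and are not paired with names in the deposited values. None of the 25495 IDs was found among 39719 genes of a RefSeq table, so the roles of the 272 genes are not given here.

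The 12 libraries held 18451262 to 25245734 fragments, which were solved together with gene lengths from the digits of the FPKM values. The tissue labels were not checked against named markers. In their place, 18 root genes with at least 300 FPKM in the roots of both genotypes and under a 200th of that in leaves, and 26 leaf genes chosen the other way round, were followed in the opposite organ. PI175311 root 1 stood apart, since its summed level of the leaf genes was 0.538% of the leaf level, against 0.0442% and 0.0221% in the other PI175311 roots and 0.0543%, 0.0223% and 0.0252% in Bloomsdale roots. In leaves, the summed level of the root genes was 0.0508%, 0.0457% and 0.0841% of the root level in PI175311 and 0.0147%, 0.0652% and 0.00399% in Bloomsdale.

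The genes higher in PI175311 leaves had median levels of 10.8, 8.19 and 8.30 FPKM in its 3 leaves, against 1.17, 2.57 and 1.85 FPKM in Bloomsdale leaves. Their median in root was 6.55, 5.08 and 4.39 FPKM in PI175311 and 4.73, 5.25 and 4.84 FPKM in Bloomsdale. The Bloomsdale leaf thus had the lowest medians of the 4 groups as deposited. The place of the leaves relative to the roots depends on the scaling of the libraries, as described below. The genes lower in PI175311 leaves had median levels of 1.72, 2.51 and 1.16 FPKM in PI175311 leaves, against 8.17, 8.19 and 9.09 FPKM in Bloomsdale leaves. Their median in root was 7.32, 9.02 and 7.14 FPKM in PI175311 and 7.88, 7.96 and 10.9 FPKM in Bloomsdale. Here the PI175311 leaf had the lowest medians as deposited.

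**Figure D1:**
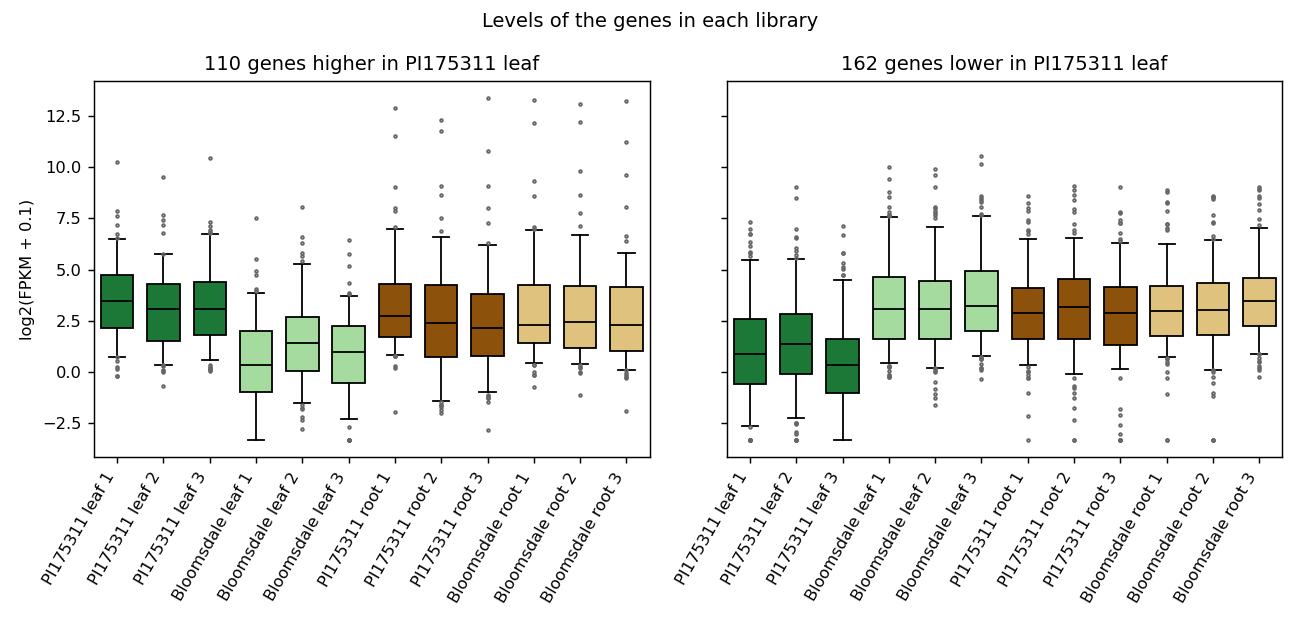
Levels as log2(FPKM + 0.1) in each of the 12 libraries, for the 110 genes higher (left) and the 162 genes lower (right) in PI175311 leaves; boxes give the quartiles with the median, whiskers the 5th and 95th percentile and points the genes beyond. In the left panel the 3 Bloomsdale leaves have the lowest medians, and in the right panel the 3 PI175311 leaves do. Their place below the leaves of the other genotype follows from the choice of the genes. Their place below the roots was no limit of the choice. The choice still favours it, since it takes genes low in these leaves and sets a floor on root means alone.

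The ratio of the leaf means, PI175311 over Bloomsdale, had a median of 4.44 among the higher genes and reached 45.0. Among the lower genes the ratio of Bloomsdale over PI175311 had a median of 4.07 and reached 126. Most differences were moderate. The larger mean was 3 to 5 times the smaller in 173 genes, 5 to 10 times in 76 genes and at least 10 times in 23 genes, of which 6 were higher and 17 lower in PI175311. The closest libraries of the 2 genotypes were at least 2 fold apart in 125 genes. The transcript was detected in all 3 leaves of the lower genotype for 244 of the 272 genes, so that a lower level and not an absent transcript was the usual picture. In 48 genes, 19 higher and 29 lower, the 3 leaves of the lower genotype held under 30 fragments together.

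Near the limits of the choice the genes formed no gap. The smallest ratio of leaf means among the chosen genes was 3.01, and the largest among genes that failed on this point alone was 2.99. There were 54 chosen genes with a ratio from 3 to 3.3, and 54 genes that failed with a ratio from 2.7 to 3. In root, 46 chosen genes had means 1.4 to 1.5 fold apart, and 45 genes were left out with means 1.5 to 1.6 fold apart.

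The chosen genes were a minority of the leaf differences of this size. In leaf, 645 genes were higher and 1037 were lower in PI175311 by at least 3 fold with no overlap and were not off in a genotype. Of the 645 higher genes, 269 had a root mean under 1 FPKM in at least 1 genotype, 174 differed in root by 1.5 to 3 fold, 140 of them in the direction of the leaf, and 92 differed by at least 3 fold, 85 in the direction of the leaf. That left the 110 genes with like root means, or 17.1%. Of the 1037 lower genes, 350 had a root mean under 1 FPKM, 312 differed in root by 1.5 to 3 fold, 282 of them in the direction of the leaf, and 213 by at least 3 fold, 194 in the direction of the leaf, which left 162 genes, or 15.6%. The same rule with leaf and root exchanged found 203 genes, 88 higher and 115 lower in PI175311 roots.

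**Figure D2:**
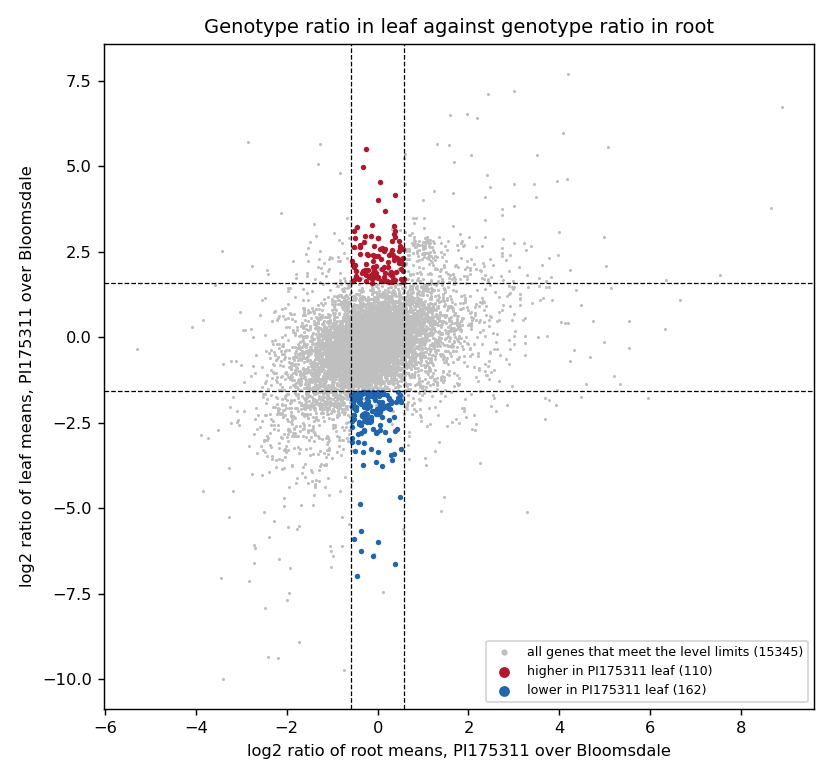
Log2 ratio of the leaf means (vertical) against the log2 ratio of the root means (horizontal), PI175311 over Bloomsdale, for 15345 genes that meet the limits on level and have all 4 means above 0; dashed lines mark 3 fold in leaf and 1.5 fold in root. The 110 red and 162 blue genes lie between the vertical lines and beyond the horizontal ones, while most other genes with a large leaf ratio and measurable roots lean to the same side in root.

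Spo02768 had the largest ratio among the higher genes. It had 1.10, 1.54 and 1.603 FPKM in PI175311 leaves, against 0, 0.0943 and 0 FPKM in Bloomsdale leaves. In root it had 3.81, 2.19 and 2.58 FPKM in PI175311 and 2.41, 5.20 and 2.58 FPKM in Bloomsdale. The leaf groups were apart and the root groups overlapped, but the ratio rested on 51 fragments in PI175311 leaves and 1 in Bloomsdale leaves. The ratio of the summed fragments was 49.6 with an exact 95% counting interval of 8.52 to 1999, which covers counting error only.

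Spo15919 was the next of the higher genes, with 2.77, 2.25 and 1.45 FPKM in PI175311 leaves, against 0, 0.0458 and 0.162 FPKM in Bloomsdale leaves. It was a root gene in both genotypes, with 26.6, 17.9 and 24.1 FPKM in PI175311 roots and 27.6, 30.8 and 27.9 FPKM in Bloomsdale roots. PI175311 leaves thus reached 12.1%, 9.81% and 6.31% of the mean of their roots, and Bloomsdale leaves 0%, 0.159% and 0.562% of theirs. The ratio of leaf means was 31.2, from 315 fragments in PI175311 and 10 in Bloomsdale. The ratio of the summed fragments had an exact 95% counting interval of 16.5 to 64.6.

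Spo08788 had the largest ratio among the lower genes, with 0, 0 and 0.228 FPKM in PI175311 leaves, against 11.6, 8.25 and 9.02 FPKM in Bloomsdale leaves. The fragments were 4 in the 3 PI175311 leaves and 454 in the 3 Bloomsdale leaves. Its likeness in root was one of means alone. The PI175311 roots had 20.6, 0 and 0 FPKM, and the Bloomsdale roots had 6.70, 7.77 and 13.8 FPKM. In 4 of the 6 PI175311 libraries, leaf and root, the gene was at 0, and PI175311 root 1 alone carried the root mean of 6.88 FPKM.

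Spo14542 was similar, with 0.0608, 0.0217 and 0.0183 FPKM in PI175311 leaves, against 5.83, 0.226 and 3.89 FPKM in Bloomsdale leaves. Its PI175311 roots had 7.34, 1.08 and 0.0206 FPKM, and its Bloomsdale roots 0.371, 0.338 and 5.78 FPKM. Here 3 of the 4 groups held libraries under 1 FPKM beside libraries above 3 FPKM. The plants of a group differed more than the means of the roots did.

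Wide spread among the 3 roots of a genotype was common among the 272 genes. The roots of at least 1 genotype spanned 3 fold or more in 98 of the 272 genes (36.0%), 44 of the higher and 54 of the lower, against 885 of all 11191 genes with root means that met the same root limits (7.91%). Among genes with root means of at least 10 FPKM, the shares were 26 of 107 (24.3%) and 330 of 6560 (5.03%). All 6 roots lay within 2 fold in 67 of the 272 genes (24.6%), against 72.1% of the genes with like root means. The median SD over 3 libraries on the log2(FPKM + 0.1) scale was 0.58 in PI175311 leaf, 0.57 in Bloomsdale leaf, 0.59 in PI175311 root and 0.36 in Bloomsdale root for the 272 genes. For all genes with like root means it was 0.25, 0.30, 0.27 and 0.16 in the same order. The leaf spread was measured in the values that chose the genes, and the root spread was not used by the choice.

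**Figure D3:**
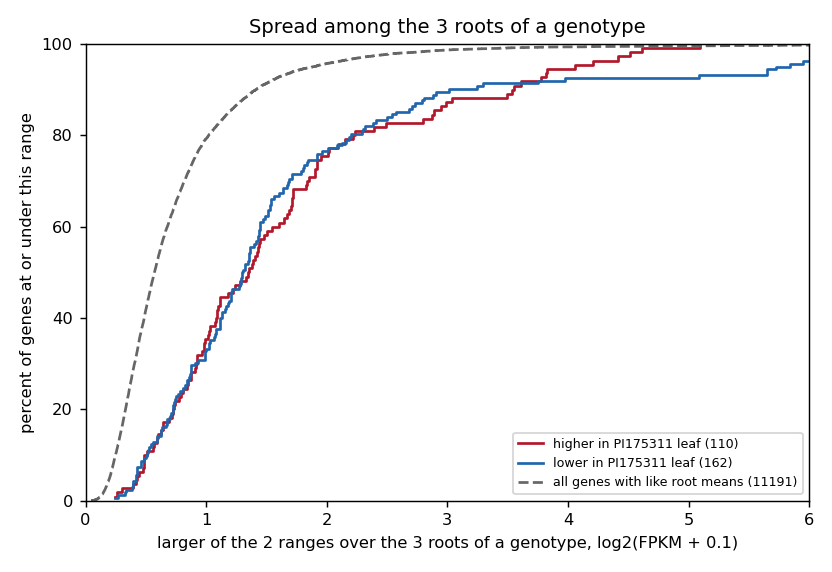
Cumulative share of genes (vertical, percent) by the larger of the ranges over the 3 roots of PI175311 and of Bloomsdale (horizontal, log2(FPKM + 0.1)), for the higher genes, the lower genes and all genes with like root means, which include both. The median range was 1.35 for the higher and 1.30 for the lower genes, against 0.57 for the 11191 genes, and 6 lower genes lie beyond the axis.

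The limit was set on root means, so their ratio was within 1.5 fold for each of these genes. For many of them the difference between genotypes in root was not measured closely. In limma, a linear model fitted to log2(FPKM + 0.1) of all genes, 0 of the 272 genes passed an adjusted p of 0.05 between the genotypes in root, where 12.6% of all 18197 genes tested did, 2.93% higher and 9.70% lower in PI175311. An unadjusted p under 0.05 was found for 14 genes, a count that the root limit also held down and whose share among all genes is not given here. With limma-voom on the recovered fragments 0 were called, beside 522 higher and 2014 lower of all tested genes. After median-of-ratios scaling 1 gene was called, beside 626 higher and 816 lower. After quantile normalization 1 gene was called, beside 707 and 761. Without PI175311 root 1 the count of called genes was 2, beside 122 higher and 811 lower of all tested genes. Without PI175311 root 2 it was 3, beside 406 and 1773. The 95% interval of the root difference lay within 3 fold in either direction for 185 of the 269 genes tested in root, in the fit that ignores replicate numbers, and for 200 with replicate number as a block. For the other 84 of the unpaired fit a root difference as large as the smallest leaf difference was not excluded by the interval. For Spo08788 the interval ran from -9.03 to 1.15 on the log2 scale, PI175311 minus Bloomsdale. Root groups did not overlap in 24 of the 272 genes (8.82%), against 2601 of the 11191 genes with like root means (23.2%) and 41.1% of all tested genes. The root limit held down the shares of the 272 and of the 11191 genes. The median root difference was -0.11 for the higher and -0.28 for the lower genes on the log2 scale, PI175311 minus Bloomsdale, beside -0.23 for all tested genes. After median-of-ratios scaling the median of all tested genes was -0.02 in root and -0.01 in leaf, where it was -0.12 as deposited, so a gene with equal root means lay slightly above the median gene.

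Between the genotypes in leaf, the comparison that chose the genes, limma called 73 genes higher and 87 lower, beside 4.04% and 6.08% of all 16764 genes tested, or 10.1% in either direction. Groups that did not overlap in leaf, which the choice required of all 272, were found in 33.2% of the tested genes, 9.88% with PI175311 higher and 23.4% with PI175311 lower. The count of 160 calls was 75 without Bloomsdale leaf 1, 94 without Bloomsdale leaf 3, 90 without PI175311 leaf 1 and 101 without PI175311 leaf 3. Among all tested genes, 678 were called higher and 1020 lower with all leaves. These numbers fell to 403 and 240, 479 and 311, 161 and 584, and 237 and 554 in the same order. For the interaction of genotype and tissue, which asks whether the genotype difference is unlike in leaf and root and was also part of the choice, 9 higher and 18 lower genes were called, beside 1.49% and 0.767% of all tested genes, or 2.26% in either direction. The 27 interaction calls changed with most single libraries, to 16, 46 and 13 without PI175311 leaf 1, 2 or 3, to 11, 56 and 13 without Bloomsdale leaf 1, 2 or 3, and to 9 and 7 without Bloomsdale root 1 or 2. They also changed with the model, to 11 with replicate number as a block, 12 with limma-voom, 11 with a mean of at least 5 FPKM, and 13 and 47 with pseudocounts of 0.01 and 1. All tested genes had 292 higher and 150 lower interaction calls. These were 109 and 75, 285 and 217, and 124 and 59 without PI175311 leaf 1, 2 or 3. Without Bloomsdale leaf 1, 2 or 3 they were 86 and 42, 628 and 172, and 132 and 55. Without Bloomsdale root 1 or 2 they were 54 and 32, and 46 and 28. With the models in the order above they were 80 and 50, 114 and 46, 96 and 67, 152 and 77, and 639 and 303.

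Membership itself depended on single libraries. Leaf library 2 of either genotype often lay closest to the other genotype. Among the higher genes, Bloomsdale leaf 2 was the highest Bloomsdale leaf in 67 of 110 and PI175311 leaf 2 was the lowest PI175311 leaf in 53. Among the lower genes, PI175311 leaf 2 was the highest PI175311 leaf in 93 of 162 and Bloomsdale leaf 2 was the lowest Bloomsdale leaf in 80. The shares among all genes are not given here. Over all tested genes, median levels in leaves 1, 2 and 3 were 6.53, 8.45 and 6.79 FPKM in Bloomsdale. They were 7.40, 6.54 and 5.90 FPKM in PI175311. The part of such library-wide levels was not tested. With fewer libraries the absence of overlap is also easier to meet. Without Bloomsdale leaf 2, 229 genes met the rule as higher, 103 of the 110 among them. Without PI175311 leaf 2, 261 genes met it as lower, 151 of the 162 among them. Only 51 of the 272 genes, 20 higher and 31 lower, met the rule whichever of the 12 libraries was left out. When root libraries alone were left out in turn, 105 genes met it each time, and when leaf libraries alone were left out, 144 did.

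The comparison of leaf with root within each genotype was no limit of the choice, but it is built from the same leaf libraries and roots. The choice fixed that it was unlike in PI175311 and Bloomsdale. It thereby shaped the counts below, for the higher and the lower genes, which are given as a description. By their means, 73 of the 110 higher genes lay near or over their roots in PI175311, and 70 lay under them by 1.5 fold or more in Bloomsdale. In PI175311, limma called 43 of the 110 higher in leaf than in root and 22 lower in leaf, beside 15.9% higher, 47.5% lower and 63.4% in either direction among all 19549 genes tested. In Bloomsdale, 6 of the 110 were called higher in leaf and 66 lower in leaf, beside 14.6% and 50.0% of all genes, or 64.6% in either direction. The count of 6 was 10 without PI175311 root 1. The median difference, leaf minus root, was 0.33 in PI175311 and -1.81 in Bloomsdale on the log2 scale.

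Of the 162 lower genes, 132 lay under their roots by 1.5 fold or more in PI175311 and 66 did in Bloomsdale. In PI175311, limma called 11 of them higher and 105 lower in leaf than in root, and in Bloomsdale it called 33 higher and 44 lower. Their median difference, leaf minus root, was -1.99 in PI175311 and -0.32 in Bloomsdale.

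The scale of these differences between organs depended on the scaling of the libraries, because the median of all tested genes was -0.64 in PI175311 and -0.70 in Bloomsdale as deposited, and -0.09 and -0.05 after median-of-ratios scaling. Among all calls, 25.1% were higher in leaf in PI175311 and 22.6% in Bloomsdale as deposited, and 48.5% and 47.8% after that scaling. Relative to the median of all genes, the higher genes lay at 0.97 in PI175311 and -1.12 in Bloomsdale, and the lower genes at -1.35 in PI175311 and 0.38 in Bloomsdale. After median-of-ratios scaling these values were 0.94, -1.14, -1.45 and 0.36 in the same order. The split of the lower genes in Bloomsdale turned with the scaling, to 46 higher and 26 lower in leaf.

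**Figure D4:**
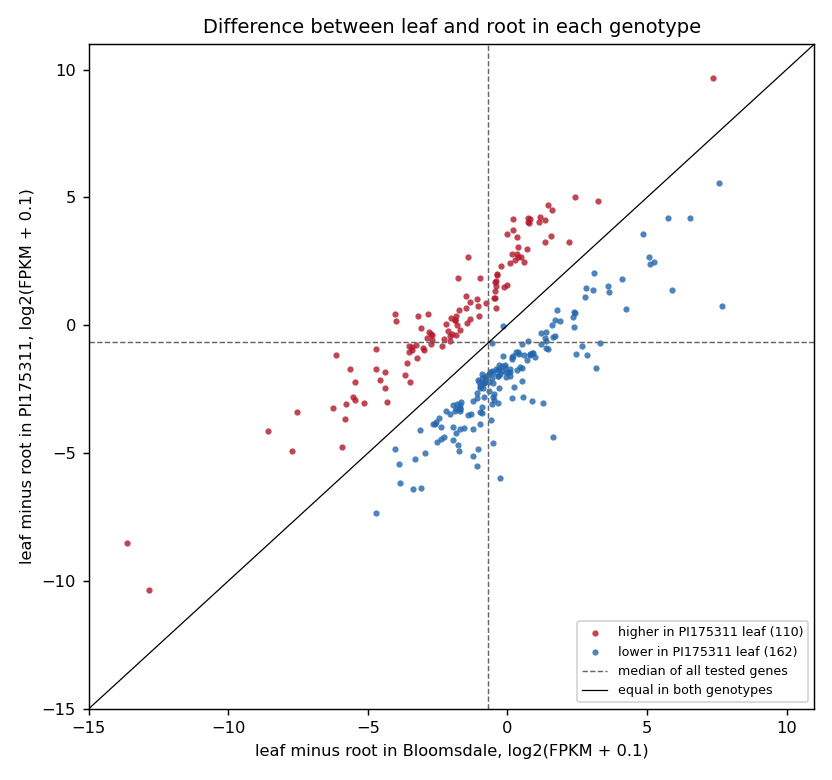
Difference between leaf and root in PI175311 (vertical) against that in Bloomsdale (horizontal), both on the log2(FPKM + 0.1) scale, for the 110 higher and 162 lower genes; dashed lines mark the medians of all tested genes, -0.64 and -0.70. The diagonal marks equal differences, and the gap on both of its sides follows from the choice of the genes. Their position along it was no limit of the choice.

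The mean levels sorted the genes by how the leaf stood to the root in each genotype, with 1.5 fold as the limit of near. Among the 110 higher genes, the leaf was under the root in both genotypes for 37, over it in both for 18, near the root in PI175311 and under it in Bloomsdale for 23, over the root in PI175311 and near it in Bloomsdale for 22, and over in PI175311 and under in Bloomsdale for 10. Among the 162 lower genes, the leaf was under the root in both genotypes for 66, over it in both for 17, under the root in PI175311 and near it in Bloomsdale for 44, near in PI175311 and over in Bloomsdale for 13, and under in PI175311 and over in Bloomsdale for 22. The last class of each set, in which the organ with more transcript changed with the genotype, therefore held 32 of the 272 genes. Of the 11191 genes with like root means, 42 were in these opposite classes, and these 42 include the 32. Among all 11191, PI175311 leaf means were under the root in 54.1%, near it in 33.8% and over it in 12.1%, and Bloomsdale leaf means in 55.4%, 32.4% and 12.2%.

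Over the 272 genes together, large differences between the organs in both genotypes were about as common as among all genes with like root means. The latter had no limit on leaf levels. Both root means were over 10 fold above the higher leaf mean in 12 of the 272 genes (4.41%), against 361 of 11191 (3.23%). The 12 were 8 of the higher genes (7.27%) and 4 of the lower genes (2.47%). Both leaf means were over 10 fold above the higher root mean in 4 genes (1.47%), 1 higher and 3 lower, against 134 of 11191 (1.20%).

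Spo23358 had the largest rise in leaf over root in PI175311. It had 1230, 722 and 1412 FPKM in PI175311 leaves, 186, 263 and 85.4 FPKM in Bloomsdale leaves, 2.101, 0.683 and 1.249 FPKM in PI175311 roots and 0.490, 0.351 and 3.39 FPKM in Bloomsdale roots. The leaves lay far above the roots in both genotypes, and the root groups overlapped. Its root means of 1.34 FPKM in PI175311 and 1.41 FPKM in Bloomsdale lay near the limit of 1 FPKM. Among the Bloomsdale roots, root 3 alone was above that limit. Leaf minus root was 9.67 in PI175311 (SE 0.72, limma adjusted p = 1.12e-06) and 7.37 in Bloomsdale (SE 0.72, limma adjusted p = 7.51e-06) on the log2 scale. Its leaf means were 1122 ± 357 FPKM in PI175311 and 178 ± 88.8 FPKM in Bloomsdale (SD, n = 3 each). PI175311 root 1, which had the highest summed level of the 26 leaf genes, was also the highest of the PI175311 roots for Spo23358, and the part of this in its root level was not tested.

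Spo21697 had the largest fitted rise in leaf over root in Bloomsdale on the log2(FPKM + 0.1) scale, and it was lower in PI175311 leaves. This order rested on Bloomsdale root 2, which was at 0, since without that library leaf minus root was 5.98 for Spo21697 and 6.81 for Spo23358, and by the ratio of means it was 6.49 and 6.98. It had 1.76, 1.76 and 8.24 FPKM in PI175311 leaves, 205, 180 and 315 FPKM in Bloomsdale leaves, 2.58, 1.30 and 1.55 FPKM in PI175311 roots and 2.15, 0 and 5.64 FPKM in Bloomsdale roots. A high level was thus seen in Bloomsdale leaves alone. Leaf minus root was 0.74 in PI175311 (SE 1.19, limma adjusted p = 0.602) and 7.70 in Bloomsdale (SE 1.19, limma adjusted p = 2.34e-04). The gene, of 375 bases, had 107 fragments in PI175311 leaves and 5956 in Bloomsdale leaves.

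Spo13607 had the largest fall in leaf under root in PI175311. It had 1.71, 1.20 and 3.39 FPKM in PI175311 leaves, 0.252, 0.954 and 0.259 FPKM in Bloomsdale leaves, 2978, 3485 and 1787 FPKM in PI175311 roots and 4592, 4646 and 2422 FPKM in Bloomsdale roots. It was among the most abundant root transcripts of the 272 genes, and its leaf levels were 0.0622%, 0.0436% and 0.123% of the root mean in PI175311 and 0.00647%, 0.0245% and 0.00666% in Bloomsdale. Leaf minus root was -10.36 in PI175311 (SE 0.50, limma adjusted p = 6.83e-08) and -12.83 in Bloomsdale (SE 0.50, limma adjusted p = 1.73e-08). The summed level of the 18 root genes in the same libraries was 0.0457% to 0.0841% in PI175311 and 0.00399% to 0.0652% in Bloomsdale. By its means Spo13607 itself met the limits that defined the 18 root genes, so this summed level is not independent of it. The leaf percentages of Spo13607 lay within that range in all 3 Bloomsdale leaves and in PI175311 leaf 1, just under it in PI175311 leaf 2 and above it in PI175311 leaf 3. The part of RNA from root genes at large in its leaf difference was not tested.

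Spo02033 had the largest fitted fall in leaf under root in Bloomsdale on the log2(FPKM + 0.1) scale. This order rested on Bloomsdale leaf 3, which was at 0, since without that library leaf minus root was -12.20 for Spo02033 and -12.58 for Spo13607, and by the ratio of means it was -11.71 and -12.96. It had 20.1, 31.7 and 12.9 FPKM in PI175311 leaves, 0.384, 7.97 and 0 FPKM in Bloomsdale leaves, 7674, 5003 and 10584 FPKM in PI175311 roots and 9922, 8608 and 9480 FPKM in Bloomsdale roots. Its root means were the highest among the 272 genes. By its means Spo02033 itself met the limits that defined the 18 root genes, so their summed level is not independent of Spo02033. Its leaf levels were 0.259%, 0.409% and 0.166% of the root mean in PI175311, each above the summed level of the 18 root genes in that library, and 0.00411%, 0.0853% and 0% in Bloomsdale, which was above that summed level in Bloomsdale leaf 2 and under it in Bloomsdale leaves 1 and 3. The part of RNA from root genes at large in its leaf difference was not tested. Leaf minus root was -8.51 in PI175311 (SE 1.17, limma adjusted p = 1.18e-04) and -13.64 in Bloomsdale (SE 1.17, limma adjusted p = 2.89e-06). Bloomsdale leaf 2 was the Bloomsdale leaf nearest to PI175311.

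**Figure D5:**
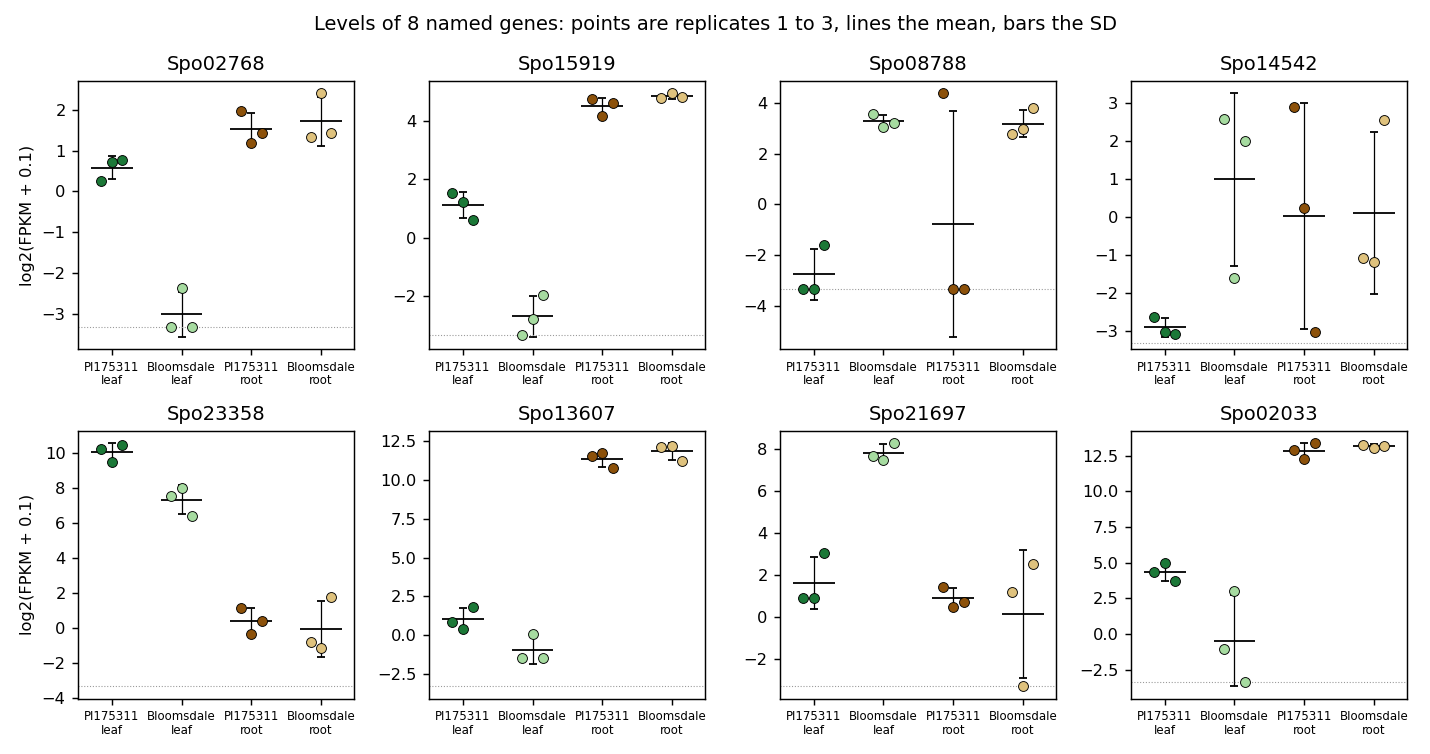
Levels as log2(FPKM + 0.1) of 8 named genes in PI175311 leaf, Bloomsdale leaf, PI175311 root and Bloomsdale root; each point is a library, lines give the mean and bars the SD of 3 libraries, and the dotted line marks 0 FPKM. Spo23358 lies high in both leaves, Spo13607 and Spo02033 high in both roots, Spo21697 high in Bloomsdale leaf alone, and the PI175311 roots of Spo08788 and Spo14542 are spread over most of their scale.

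The genes covered a wide range of levels and sizes. The higher of the leaf means was under 10 FPKM in 149 genes, 10 to 100 FPKM in 103 and at least 100 FPKM in 20, of which 5 were higher and 15 lower in PI175311. The 272 genes held 77 to 1780863 fragments over the 12 libraries, with a median of 2985, against 4029 for all tested genes. Their recovered gene length had a median of 1230 bases for the higher and 1248 bases for the lower genes, against 1479 bases for all tested genes and 1617 bases for all genes with like root means. The summed level of the higher genes was 3628, 2633 and 3637 FPKM in PI175311 leaves and 556, 1064 and 498 FPKM in Bloomsdale leaves. The summed level of the lower genes was 1430, 2193 and 886 FPKM in PI175311 leaves and 6468, 6053 and 7961 FPKM in Bloomsdale leaves.

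The paper lists isocitrate, oxaloacetate, glycolate or glyoxylate, and ascorbate as proposed sources of oxalate in plants. For its breakdown the paper names routes by way of oxalyl-CoA and by oxalate oxidase. It states that oxalate decarboxylase activity has not been shown in plants. The paper prints IDs for 15 genes around these routes, a list picked in part on these samples and in part from genes already known, so that it is not independent evidence of direction. Among the 15, the leaf groups did not overlap in 7, the leaf part of the rule was met by 4 and the root part by 4. Only 1 gene met all parts, Spo12360, which is left out of the 272 by name. None of the other 14 was among the 272 genes.

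Spo12360 is annotated in the paper as an alanine-glyoxylate aminotransferase, an enzyme that turns glyoxylate and alanine into glycine and pyruvate. It had 2.31, 1.92 and 1.84 FPKM in PI175311 leaves, against 0.221, 0.774 and 0.145 FPKM in Bloomsdale leaves. Its roots had 29.5, 23.8 and 44.1 FPKM in PI175311 and 26.1, 34.6 and 36.2 FPKM in Bloomsdale. The leaf means differed 5.33 fold and the root means 1.005 fold, with overlapping roots. It was called lower in leaf than in root in both genotypes, with leaf minus root of -3.90 in PI175311 (SE 0.41, limma adjusted p = 1.56e-05) and -6.29 in Bloomsdale (SE 0.41, limma adjusted p = 3.36e-07), so it belonged to the class of 37 higher genes with both leaves under the roots in its pattern.

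Spo13898, annotated in the paper as isocitrate lyase, the enzyme that splits isocitrate into glyoxylate and succinate, did not meet the rule. It had 0.940, 0.3003 and 0.487 FPKM in PI175311 leaves, against 0, 0 and 0.0197 FPKM in Bloomsdale leaves, where it was therefore off by the limit of 0.05 FPKM. Its leaf mean in PI175311 was under 1 FPKM, and the 3 Bloomsdale leaves held 1 fragment, against 88 in PI175311 leaves (ratio of fragments 85.7, exact 95% counting interval 15.0 to 3421). Its roots had 4.82, 6.32 and 6.57 FPKM in PI175311 and 5.91, 15.1 and 18.7 FPKM in Bloomsdale, with means 2.24 fold apart and thus beyond the root limit.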

How the data were processed

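The authors deposited FPKM, a number of fragments divided by the length of the gene and by the total of the library, for each gene and library, with no further scaling between libraries. In the paper's account the authors placed paired-end reads on the genome of SpinachBase by TopHat (2.0.12) and Bowtie (2.2.3) and counted them with HTSeq (0.6.1), whereas the notes on processing that the submitters gave list fastp, featureCounts and HISAT2 (2.1.0). Which of these made the values, the gene lengths and the genome build are not given in the sources used here. All 12 value columns belonged to samples of the series, and 0 others were present.

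The members, the list of 15 genes and the tests were chosen with earlier results of these data known. Members were found by the rule on the deposited FPKM. Fragments, library totals and gene lengths were solved from the FPKM values, using that fragments are whole numbers, and 99.9% of 21554 genes above 0 in at least 6 libraries gave a whole length within 0.01 base. The smallest solution was taken, which may understate fragments of genes seen in few libraries, and 1 gene was not solved. limma (3.58.1, R 4.3.3) was fitted to log2(FPKM + 0.1) with trend and robust empirical Bayes, over all 12 libraries in 4 groups for leaf against root and the interaction, and over the 6 libraries of an organ for genotype. Tested genes reached 1 FPKM in 3 or more libraries of the fit, p-values were adjusted by the Benjamini-Hochberg method over all of them, and 0.05 was the threshold. A fold change on this scale is understated for low genes. The fit and the fragment solution were tested on simulated data. The libraries come from separate plants, 3 in each group, so the tests rest on small groups.

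Named genes were, in each direction, the 2 members with the largest ratio of leaf means, in each genotype the member called leaf against root with the largest rise and that with the largest fall, and the 2 genes left out by ID. The labels give all groups replicate numbers 1 to 3. Same-numbered roots of the genotypes deviated together from their group means, with correlations across genes of 0.219, 0.200 and 0.219. Root libraries may therefore be paired by number. The root comparison was nonetheless fitted unpaired, and the block entered as an alternative. In leaf the correlations were 0.04, -0.19 and -0.16, so no pairing was taken there. Between leaf and root they were 0.04, -0.18 and -0.18 in PI175311, and -0.15, 0.26 and 0.32 in Bloomsdale. Leaf and root of Bloomsdale may therefore be paired by number too. Leaf against root and the interaction were also fitted unpaired, with the block as an alternative. Alternatives were other pseudocounts, filters, scalings, limits of the rule and limma options, limma-voom, the 6 libraries of one genotype, replicate number as a block, each library left out, and, chosen after seeing the data, both leaf libraries 2 left out together. Sequences and gene names were not used here.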

Additional observations from a re-analysis of the deposited data

How the results depend on the processing

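Counts of members moved with the limits of the rule. Higher and lower genes numbered 45 and 54 with a leaf ratio of at least 5, 63 and 86 with a closer limit on the root means, and 40 and 78 with levels of at least 5 FPKM. They numbered 112 and 154 after median-of-ratios scaling, with 83 and 115 of the original genes, and 103 and 120 after quantile normalization, with 73 and 81. Leaving out single libraries gave 94 to 229 higher and 122 to 261 lower genes, and leaving out both leaf libraries 2 gave 279 and 280.

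For leaf against root, the calls of the higher genes ranged over left-out libraries from 39 to 45 higher and 21 to 27 lower in PI175311, and from 4 to 10 and 62 to 68 in Bloomsdale. For the lower genes they ranged from 10 to 13 and 97 to 104 in PI175311, and from 31 to 35 and 37 to 50 in Bloomsdale. Other settings kept these counts within 1.5 times, except 27 higher genes called higher in PI175311 with a mean of at least 5 FPKM, where fewer genes were tested, and 26 lower genes called lower in Bloomsdale after median-of-ratios scaling.

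Calls between genotypes in leaf ranged from 75 to 167 over left-out libraries and were 98 with a mean of at least 5 FPKM. Root calls ranged from 0 to 3, with 1 after either scaling. Interaction calls ranged from 7 to 56, and were 12 with limma-voom, 11 with a mean of at least 5 FPKM, 13 and 47 with pseudocounts of 0.01 and 1, and 11 with the replicate block. With replicate number as a block, 0 root calls, 185 leaf calls and for leaf against root 43 and 23 higher genes and 11 and 103 lower genes in PI175311, with 6 and 67 and then 34 and 45 in Bloomsdale, were found, so the block changed no other count by over 1.5 times. The calls among all tested genes moved too in most of these settings, and the cause of these moves was not tested. Of 276 alternative values of the named genes, 267 kept their direction and their side of the threshold or, without a test, moved by less than the spread between replicates, 9 moved further with the pseudocount and 0 reversed. Depth limits the 48 genes with under 30 fragments in the leaves of the lower genotype.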
